A study of Mus musculus with 7 samples.

Results

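The genes described here encode the calpains, their small subunit and their inhibitor calpastatin: Capn1, Capn2, Capn3, Capn7, Capn15, Capns1 and Cast. They were chosen by gene symbol, and all 7 had a row among the 12239 genes measured. Capn15 was included for its near loss of reads in the knockout, so its values are given as a description with no test. The other 6 were listed by family and were tested. RNA was sequenced from TA muscle (tibialis anterior, made mostly of fast-twitch fibres) of male mice aged 5 to 6 months by the sample titles. All animals were of the FVBN strain. The 4 WT libraries came from mice with the normal gene, and the 3 C2-/- libraries from mice whose Mybpc2 gene, which encodes fast myosin-binding protein C, carries a Neo cassette between LoxP sites in place of exons 2 to 22. The allele is not restricted to a cell type or age, and no agent was given to either group.

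Calpains are cysteine proteases of the cytosol that cut their substrates at a few sites. The classical forms, calpain 1 (Capn1) and calpain 2 (Capn2), need calcium, work as a pair with the regulatory subunit Capns1 and are inhibited by calpastatin (Cast). Calpain 3 (Capn3) is the form particular to skeletal muscle: it binds titin in the sarcomere, and its loss causes a limb-girdle muscular dystrophy in people. Calpain 7 (Capn7) and calpain 15 (Capn15) are atypical calpains that lack the calcium-binding domain of the classical ones, and calpain 15 carries zinc fingers at its start.

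The protease site of each catalytic member is shown first. The share of G and C bases (GC content) of whole transcripts is set beside the measured differences further below. The 5 sequences are the spliced coding bases around the codon of the catalytic cysteine, 5′ to 3′ on the coding strand, with that codon in capitals. They come from the longest protein-coding transcript of each gene in GENCODE M21 on GRCm38, the build of the authors' alignment, and each crosses an exon boundary.
Capn1: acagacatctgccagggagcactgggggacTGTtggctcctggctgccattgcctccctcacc
Capn2: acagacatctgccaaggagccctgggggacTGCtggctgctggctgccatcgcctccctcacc
Capn3: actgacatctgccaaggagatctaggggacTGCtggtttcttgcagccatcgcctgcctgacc
Capn7: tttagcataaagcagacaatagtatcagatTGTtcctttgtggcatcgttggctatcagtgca
Capn15: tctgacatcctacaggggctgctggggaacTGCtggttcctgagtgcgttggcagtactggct

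The cysteine codon lies at chr19:6013700-6013702 in exon 4 of Capn1 and at chr1:182492863-182492865 in exon 3 of Capn2. It lies at chr2:120482115-120482117 in exon 3 of Capn3, at chr14:31354110-31354112 in exon 8 of Capn7 and at chr17:25963249-25963251 in exon 4 of Capn15. The windows of Capn1 and Capn2 shared 58 of 63 bases, and those of Capn2 and Capn3 shared 53. Capn7 shared only 23 bases with Capn2 and 28 with Capn15. Its window held 39.7% G and C, against 57.1% in Capn3, 58.7% in Capn15, 63.5% in Capn1 and 66.7% in Capn2. At the third codon position of the whole coding sequence the GC content was 40.6% in Capn7 and 64.5% to 73.1% in the other 4. Between any pair of the 11 calpain system transcripts measured, the longest stretch of identical bases was 23, in Capn3 and Capn12.

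Over the whole transcript the GC content was 42.8% in Cast and 43.7% in Capn7, which lie low among all genes (median 50.2%). It was 50.7% in Capn3 and 51.8% in Capn2, near that median. It was 57.1% in Capn1, 57.3% in Capns1 and 61.1% in Capn15, the last of which lay at the 97.4th percentile of all genes.

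The library labels held in the targeted gene. Mybpc2 had 100452, 110159, 83371 and 25665 reads in WT replicates 1 to 4, and 6, 8 and 3 reads in C2-/- replicates 1 to 3. Reads in the table numbered 4683853 to 15464499 per WT library and 2613277 to 4917936 per C2-/- library. Among WT libraries, replicate 4 alone was as shallow as those of C2-/-, so depth and genotype cannot be told apart outside that library. Over all genes 25.0% were lower and 20.2% higher in C2-/- by the test used below. Of the marker lists, 4 of 7 fast fibre genes were lower in C2-/- and 3 did not pass, with a summed level of 76540 to 92470 CPM (reads per 1e6 reads of the library) against 139600 to 173100 in WT. All 4 fibroblast genes were higher, at 1432 to 1762 against 428 to 737 CPM. The summed ranges of endothelial, macrophage, adipocyte and Schwann cell markers overlapped between the groups, although 1 of 3 Schwann cell genes was lower. Of the satellite cell markers, 1 of 3 was higher, and Pax7 and Chrdl2 had a library with 0 reads. Alas2, the only 1 of 3 red blood cell markers analysed here, was lower. Fewer cells of a type and less RNA per cell cannot be told apart in whole muscle, and the part of these shifts in the calpain values was not tested. The marker values were not corrected for GC content, and its part in these shifts was not tested either.

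In WT muscle the small subunit was the most abundant of these transcripts and Capn15 the least abundant of the 7 members. Levels compared between genes are CPM per kb of the longest coding transcript, as mean ± SD. Capns1 stood at 115 ± 14.9 (n = 4) and Capn3 at 65.4 ± 4.84. Capn1 followed at 34.6 ± 3.49, and no library of these 3 genes reached the range of the next. Capn7 (23.8 ± 3.29), Capn2 (21.5 ± 4.10) and Cast (16.3 ± 0.806) came next, and the libraries of Capn2 overlapped with those of both neighbours. Capn15 stood at 1.20 ± 0.163, within the range of Capn12 (1.51 ± 1.04) and below every library of Capn10 (3.66 ± 2.85). With the union of all exons as the length, the first 6 kept this order, Capn2 and Cast no longer overlapped, and Capn15 (1.09 ± 0.148) came before Capn12 (0.961 ± 0.664).

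The C2-/- libraries gave another order. Capns1 (83.0 ± 14.5 CPM per kb, n = 3) and Capn3 (55.4 ± 10.9) still led, followed by Capn7 (44.4 ± 2.72) and Cast (29.2 ± 2.25). Capn2 stood at 24.0 ± 6.02 and Capn1 at 18.5 ± 3.51. From Capn3 downwards, Capn3 overlapped with Capn7, and Capn2 with both Cast and Capn1. With the union length Capn1 (17.0 ± 3.21) stood above both Cast (13.1 ± 1.01) and Capn2 (12.2 ± 3.06), so the place of Capn1 among these 3 depends on the length chosen.

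Of the 6 tested genes, 3 passed the threshold in C2-/- against WT: Capn1 was lower, and Capn7 and Cast were higher. The test was limma on log2 CPM, and a gene passed with an adjusted p under 0.05 over all genes and a fold change above 1.5. Among all genes 45.2% passed, 20.2% higher and 25.0% lower, so 3 of 6 is near the background. Of all calls 44.7% were higher, against 59.6% on values corrected for GC content. The groups did not overlap in Capn1, Capn7, Capns1 and Cast, 4 of the 6, against 49.3% of all genes. The median log2 change of the 6 was -0.05 beside -0.14 for all genes. Centring each library on its median moved the changes by 0.16, and Capn1 (-0.75), Capn7 (1.07) and Cast (1.001) still passed. On values corrected for GC content none of these 3 genes passed, and Capns1 alone did, in the opposite direction to its deposited values.

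**Figure D1:**
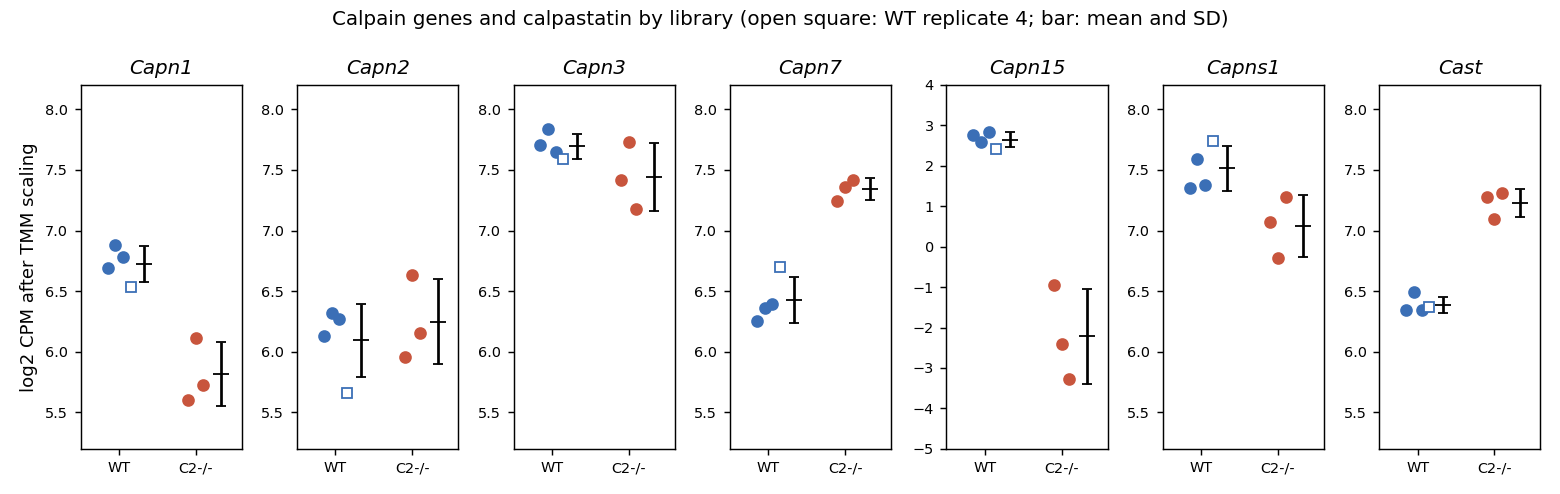
Log2 CPM after TMM scaling (y axis) of the 7 genes in each WT library (blue) and each C2-/- library (red), with the group mean and SD as bars and WT replicate 4 as an open square. Cast and Capn7 sat higher and Capn1 lower in all 3 C2-/- libraries, Capn2 and Capn3 overlapped, and Capn15 has its own axis, reaching below 0.

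Capn1, the catalytic subunit of calpain 1 (chr19:5988545-6015897, minus strand), stood at 6.69, 6.88, 6.78 and 6.53 log2 CPM in WT replicates 1 to 4. In C2-/- replicates 1 to 3 it stood at 5.61, 6.11 and 5.72. Every C2-/- library lay below every WT library. The log2 change was -0.91 ± 0.18 (SE), 1.88-fold lower, with a limma adjusted p of 0.00320. The C2-/- mean differed by -0.72 from WT replicate 4 and by -0.97 from the mean of WT replicates 1 to 3. After GC correction the log2 change was 0.43 ± 0.25, with overlapping groups and a limma adjusted p of 0.234. Capn1 overlaps Gm10814 on the other strand, and the use of strand in counting is not given in the sources used here.

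Capn2, the catalytic subunit of calpain 2 (chr1:182467260-182517608, minus strand), had log2 values of 6.13, 6.32, 6.27 and 5.66 in WT and 5.96, 6.64 and 6.16 in C2-/-. Both the lowest value, in WT replicate 4, and the highest, in C2-/- replicate 2, came from shallow libraries. The groups overlapped, and the log2 change of 0.15 had a 95% interval of -0.35 to 0.66. Its limma adjusted p was 0.594. After GC correction the log2 change was 0.62 ± 0.23, with a limma adjusted p of 0.0802.

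Within a library, the balance of the 2 catalytic subunits differed between the groups. The log2 value of Capn2 minus that of Capn1, with no length taken into account, was -0.63 ± 0.17 (SD) in WT and 0.44 ± 0.09 in C2-/-, with no overlap. Transcript length cancels in the shift of 1.06 between the groups, but which gene is the higher in C2-/- depends on the length chosen (above). On GC-corrected values the difference was -0.25 ± 0.29 in WT and -0.06 ± 0.10 in C2-/-, and the groups overlapped. Capn1 differs from Capn2 by over 5 points of GC content, and the part of this in the difference was not tested.

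Capns1, the small regulatory subunit of both (chr7:30186936-30198811, minus strand), had log2 values of 7.35, 7.59, 7.38 and 7.74 in WT. The C2-/- values were 7.07, 6.77 and 7.28, all below WT, although the gap between the groups was small. The log2 change of -0.47 ± 0.18 had a limma adjusted p of 0.0492 and missed the fold-change minimum. On GC-corrected values Capns1 stood at 6.69, 6.92, 6.62 and 7.48 in WT and at 7.51, 7.88 and 8.07 in C2-/-, so the order of the groups turned. The corrected log2 change was 0.89 ± 0.23 with a limma adjusted p of 0.0210, and it was past the threshold. On the corrected values 20.6% of genes passed, 12.3% higher and 8.32% lower. WT replicate 4 lay close to the lowest C2-/- library there, and the corrected C2-/- mean exceeded it by 0.34.

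Cast, which encodes the inhibitor calpastatin (chr13:74692368-74808810, minus strand), had the tightest WT values of the 7 genes. They were 6.35, 6.49, 6.34 and 6.37, against 7.28, 7.10 and 7.31 in C2-/-. Every C2-/- library exceeded every WT library by more than the spread within either group. C2-/- exceeded WT by a log2 change of 0.84 ± 0.15, 1.79-fold higher, with a limma adjusted p of 0.00184. The C2-/- mean exceeded WT replicate 4 by 0.86 and WT replicates 1 to 3 by 0.83. After GC correction the log2 change was 0.05 ± 0.15, with a limma adjusted p of 0.831. The corrected values ran from 6.50 to 6.87 in WT and from 6.62 to 6.88 in C2-/-. Its 3′ end overlaps Erap1 on the other strand.

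The level of the inhibitor relative to its protease also differed within libraries. The log2 value of Cast minus that of Capn1, with no length taken into account, was -0.34 ± 0.12 in WT and 1.41 ± 0.37 in C2-/-. The groups did not overlap, and their means differed by 1.75. With the union length Cast stood below Capn1 in both groups, so only the shift, not the order, is free of the length chosen. Cast lies below and Capn1 above the median GC content of all genes. On GC-corrected values the same difference was 0.57 ± 0.24 in WT and 0.20 ± 0.72 in C2-/-, with overlapping groups. Cast against Capn2 overlapped between the groups before correction too, at 0.29 ± 0.28 and 0.98 ± 0.45.

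Capn3, the muscle calpain (chr2:120456019-120504913, plus strand), changed little beside its spread. Its log2 values were 7.70, 7.83, 7.65 and 7.59 in WT and 7.42, 7.73 and 7.17 in C2-/-. C2-/- replicate 2 lay within the WT range and the other two below it. The log2 change of -0.25 had a 95% interval of -0.63 to 0.12 and a limma adjusted p of 0.236, and after GC correction it was 0.03 ± 0.17. Its 5′ part overlaps Ganc on the same strand.

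Capn7, an atypical calpain (chr14:31336638-31371986, plus strand), had log2 values of 6.25, 6.36, 6.40 and 6.70 in WT and 7.24, 7.36 and 7.42 in C2-/-. The groups were apart, with WT replicate 4 nearest to C2-/-. The log2 change was 0.91 ± 0.16, 1.88-fold higher, with a limma adjusted p of 0.00198. The C2-/- mean exceeded WT replicate 4 by 0.64 and WT replicates 1 to 3 by 1.003. After GC correction the log2 change was 0.23 ± 0.14 and the limma adjusted p 0.244, while the groups still did not overlap. Its 3′ part overlaps Sh3bp5 on the other strand.

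Capn15, the atypical calpain with zinc fingers (chr17:25958364-25985796, minus strand), was counted with 103, 89, 110 and 23 reads in WT replicates 1 to 4. It had 1, 0 and 0 reads in C2-/- replicates 1 to 3. WT replicate 4 was the shallow WT library, and its level of 5.23 CPM was close to the 5.95 to 7.16 CPM of the other WT libraries. At the WT mean level, 18.2, 16.8 and 30.3 reads would be counted in C2-/- replicates 1 to 3 at their depth, 65.3 in all, where 1 was counted. The pooled level over the 3 libraries was 0.0961 CPM with an exact Poisson 95% interval of 0.00243 to 0.535, which covers counting error only. The WT mean of 6.26 ± 0.851 CPM was 65.2 times that pooled level, with a counting interval of 11.7 to 2575. Both intervals leave out the spread between libraries and the choice of Capn15 by these same values, so neither is a test. The reads expected at the WT mean level were not corrected for GC content.

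**Figure D2:**
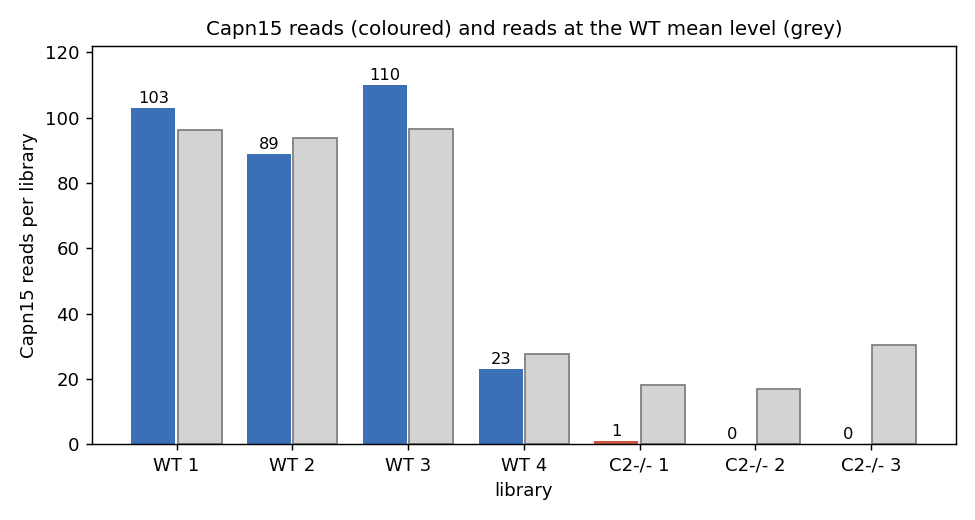
Reads of Capn15 counted in each library (coloured bars, blue for WT and red for C2-/-, with the number above) and the reads that the WT mean level would give at that library's depth (grey bars). The WT bars reach 23 to 110 reads, near their grey bars, while the C2-/- bars stand at 1, 0 and 0 beside grey bars of 16.8 to 30.3.

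On the log2 scale Capn15 stood at 2.75, 2.58, 2.85 and 2.42 in WT and at -0.95, -2.42 and -3.27 in C2-/-. The last 2 values are those of 0 reads, and they differ between the libraries only through depth. The fitted log2 change of -4.86 therefore depends on the 0.5 added to each count and is not a bound. It was -3.07 after GC correction. Of the 8694 genes with a WT mean at least that of Capn15, no other had as few as 1 read over the 3 C2-/- libraries, a comparison whose limits were set by Capn15 itself. Its 3′ part, the codon shown included, overlaps Gm26694 and D630044L22Rik on the other strand, which are not analysed here.

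Beside the muscle calpain, Capn15 was the low transcript in both groups. The log2 value of Capn3 exceeded that of Capn15 by 4.80 to 5.25 in the WT libraries. In C2-/- replicates 2 and 3, where Capn15 had 0 reads, Capn3 exceeded a floor of 3 Capn15 reads per library by at least 7.56 and 7.86 on the log2 scale. C2-/- replicate 1 had 1 read of Capn15 and is given no such bound. The log2 changes of the other 6 members lay between -0.91 and 0.91. The choice of Capn15 fixed this gap, so it carries no test.

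Spearman's rho between GC content and log2 change was -0.43 over the 10 calpain system genes measured other than Capn15, and -0.68 over 12171 genes. These are correlations across genes that share the same libraries, and genes are not independent replicates. The AT-rich Cast and Capn7 were higher, Capn2 and Capn3 near the median moved least, and the GC-rich Capn1 was lower. Capns1, also GC-rich, had a log2 change of -0.47 and did not pass the threshold, and Capn15 was not tested. The part of base composition in each value was not tested beyond the corrected values given here.

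**Figure D3:**
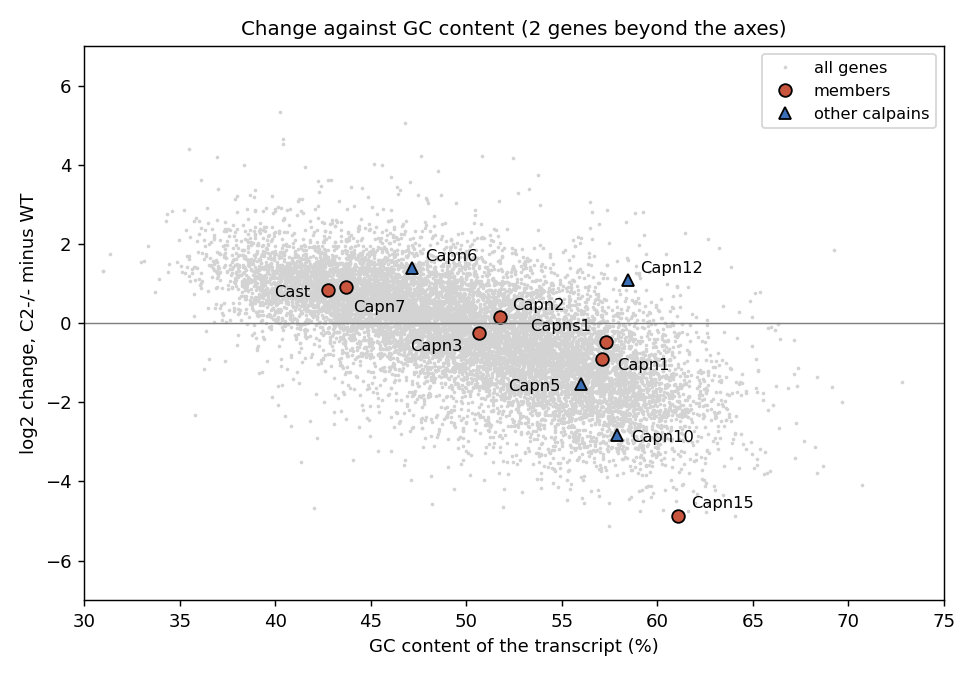
Log2 change, C2-/- minus WT (y axis), against the GC content of the transcript in percent (x axis) for all genes (grey), the 7 members (red circles) and the other 4 calpains measured (blue triangles); 2 genes lie beyond the axes. Over all genes the change falls as GC content rises (rho = -0.68), and among the calpain genes Capn12, with a GC content of 58.5% and a log2 change of 1.09, lies off that direction, while Capn2 lies above Capn3 and Capns1 above Capn1.

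**Figure D4:**
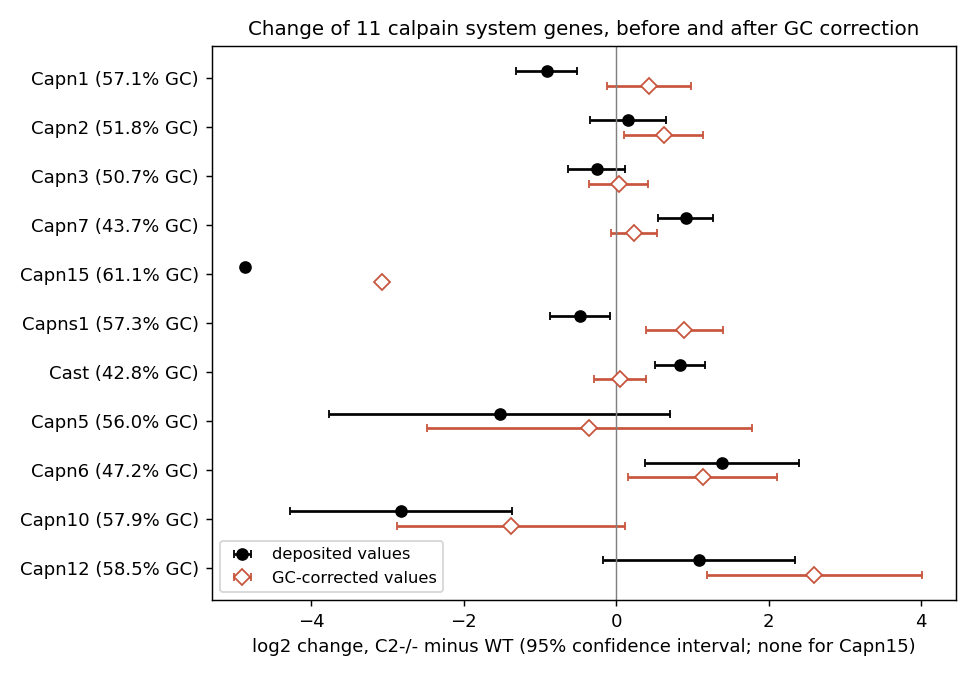
Log2 change, C2-/- minus WT (x axis), with its 95% confidence interval (none for Capn15) for 11 calpain system genes on the deposited values (black circles) and on GC-corrected values (open red diamonds). The intervals of Capn1, Capn7 and Cast exclude 0 before correction and include it after, Capns1 changes side, and Capn15, which was not tested, is drawn without an interval.

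The remaining calpains were expressed at low levels. Of 9 further family genes sought, Capn5, Capn6, Capn10 and Capn12 were measured, and Capn8, Capn9, Capn11, Capn13 and Capns2 are not analysed here. Of the 4, Capn6 was higher and Capn10 lower in C2-/-, and Capn5 and Capn12 did not pass the test, so 2 of 4 passed beside 45.2% of all genes.

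Capn10, an atypical calpain (chr1:92934376-92947941, plus strand), had 87, 111, 98 and 101 reads in WT and 8, 2 and 3 in C2-/-. WT replicate 4 thus held as many reads as WT libraries over 3 times as deep, at 23.0 CPM against 5.67 to 7.42. Its log2 change was -2.83 ± 0.65 with a limma adjusted p of 0.00666. The C2-/- mean differed by -4.20 from WT replicate 4 and by -2.37 from WT replicates 1 to 3. After GC correction (its GC content is 57.9%) the log2 change was -1.38 ± 0.67, with a limma adjusted p of 0.166. The corrected groups overlapped. Capn10 lies wholly within 9430060I03Rik on the other strand, which is not analysed here.

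Capn6, a family member without the catalytic cysteine and so not a protease (chrX:143802231-143827414, minus strand), had log2 values of 0.62, 0.88, 1.12 and 1.51 in WT. They were 2.75, 2.11 and 2.40 in C2-/-, resting on 19, 11 and 25 reads. The groups did not overlap. In the fit its log2 change was 1.39 ± 0.46 with a limma adjusted p of 0.0306, and without WT replicate 1, 2 or 3 or C2-/- replicate 1 the adjusted p was 0.0700 to 0.0997. After GC correction it was 1.13 ± 0.44, with a limma adjusted p of 0.0917.

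Capn12, a classical calpain by its domains (chr7:28881422-28893563, plus strand), had 43, 47, 47 and 41 reads in WT and 37, 30 and 20 in C2-/-. On the log2 scale WT replicate 4 (3.24) stood with C2-/- replicates 1 and 2 (3.69 and 3.51), above the other WT libraries (1.504 to 1.67). C2-/- replicate 3 (2.09) lay between, and the groups overlapped. The log2 change of 1.09 ± 0.57 had a limma adjusted p of 0.135, and without WT replicate 4 it was 1.497 with an adjusted p of 0.0325. The log2 change also passed without C2-/- replicate 3 (1.59, limma adjusted p 0.0475) and with library quality weights (1.499, adjusted p 0.0156). After GC correction it was 2.60 ± 0.63 with a limma adjusted p of 0.0185, past the threshold, although one pair of libraries still overlapped. Its 3′ end overlaps Actn4 on the other strand. Capn5, an atypical calpain, had 32, 33, 34 and 4 reads in WT and 7, 2 and 0 in C2-/-. It gave a log2 change of -1.53 ± 1.005 and a limma adjusted p of 0.230. Without C2-/- replicate 3, which had 0 reads, the log2 change was -0.23, and without C2-/- replicate 1 it was -2.55.

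Genes whose proteins calpains bind or cut were read as 2 lists. Of 8 partners and substrates of calpain 3, 1 rose and 4 fell in C2-/- (limma), with a median log2 change of -0.89 beside -0.14 for all genes. The 5 of 8 that passed stand beside 45.2% of all genes. Titin (Ttn), the giant sarcomeric protein that holds calpain 3 and the most abundant of the list, had log2 values of 13.47, 13.72, 13.57 and 14.37 in WT and 14.41, 14.57 and 14.14 in C2-/-. Those groups overlapped through WT replicate 4, and the log2 change of 0.59 ± 0.30 had a limma adjusted p of 0.133. Titin passed without WT replicate 4 (0.79, limma adjusted p 0.0253), and with all 7 libraries under voom (0.60, adjusted p 0.0264) and quantile normalization (1.06, adjusted p 0.0174). It did not pass when any other single library was left out. Nor did it with library quality weights (0.76, limma adjusted p 0.0881) or median centring (0.75, adjusted p 0.0725). After GC correction its log2 change was 0.36 ± 0.30, with a limma adjusted p of 0.415.

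Simc1, which encodes a SUMO-binding protein, had the largest rise. Its log2 values were 3.10, 2.97, 2.95 and 3.61 in WT and 4.91, 5.79 and 5.78 in C2-/-, and the groups were far apart. It rose by 2.34 ± 0.30 on the log2 scale (limma adjusted p 0.000539), and after GC correction it was 2.22 ± 0.30 (limma adjusted p 0.00219). Flnc, the muscle filamin, had the largest fall, from log2 values of 9.46, 9.71, 9.34 and 8.92 in WT to 7.68, 7.31 and 6.98. Its log2 change was -2.03 ± 0.22 (limma adjusted p 0.000302), and after GC correction -0.52 ± 0.19 (limma adjusted p 0.0728). The other 3 that fell, named after their values were seen, were Dysf, Ryr1 and Aldoa. On GC-corrected values Simc1 rose and Ahnak, also named after its values were seen, fell, 2 of 8 beside 20.6% of all genes, with a list median of 0.0025 beside 0.0187 for all genes.

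Of 9 substrates of calpain 1 and 2, 1 rose and 5 fell (limma), with a median log2 change of -0.84 beside -0.14 for all genes. The 6 of 9 that passed stand beside 45.2% of all genes. Desmin (Des), the intermediate filament protein of muscle and the most abundant, went from log2 values of 11.85, 12.02, 11.88 and 11.71 in WT to 11.01, 10.71 and 10.51. The log2 change was -1.12 ± 0.19 (limma adjusted p 0.00163), and 0.13 ± 0.18 after GC correction. Vimentin (Vim), an intermediate filament protein of connective tissue cells, rose from 6.02, 6.27, 6.20 and 6.90 to 7.66, 7.59 and 7.72. Its log2 change was 1.31 ± 0.21 (limma adjusted p 0.00132) and 2.16 ± 0.26 after GC correction. All 4 fibroblast markers were higher in the same libraries (above), and their part in the Vim value was not tested. The summed level of the fast fibre markers was lower there (above), and its part in the falls of muscle genes in both lists was not tested.

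Junctophilin 2 (Jph2), which ties the T-tubule to the sarcoplasmic reticulum, fell most in that list, from log2 values of 9.87, 10.03, 9.98 and 9.15 to 7.26, 6.12 and 6.87. Its log2 change was -3.01 ± 0.29 (limma adjusted p 0.000231) and -1.15 ± 0.15 after GC correction (limma adjusted p 0.00170). Sptan1, Tln1 and Flna also fell and are named after their values were seen. Without WT replicate 4, when 50.1% of all genes passed, 2 more of the list passed as higher. They were Jph1 (0.64, limma adjusted p 0.00931) and Ezr (1.01, adjusted p 0.0429), also named after their values were seen. On GC-corrected values Vim rose and Jph2 and Flna fell, 3 of 9 beside 20.6% of all genes, and the list median was 0.13.

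The genes most like Capn3 and Capn15 over the 7 libraries were taken by Pearson's r among 11885 other genes with a WT mean log2 value of at least 0. For Capn3 they were Arl3 (r = 0.99), Shf (0.98), Ogfod3 (0.98), Nol9 (0.97) and Esr1 (0.97), and 177 genes reached an r of 0.9. For Capn15 they were Mapkapk2, Msto1, Mpdu1, Eef1d and 2310067B10Rik (r from 0.996 to 0.998), and 1565 genes reached 0.9. The r of Capn15 rests on the gap between the WT and C2-/- libraries. The log2 changes of its 5 genes were between -1.06 and -3.44, and their GC contents between 55.5% and 58.2%.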

How the data were processed

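TA muscle RNA was selected on oligo(dT) beads and sequenced as DNA nanoballs, and groups and replicate numbers came from the titles. The series design gives 4 animals per group, and 3 C2-/- libraries are analysed here. The titles put the animals at 5 to 6 months, while the methods of the study start the range lower. The titles number the replicates but do not state that they were separate animals. That was assumed, so p-values measure the spread between these samples. The authors aligned reads with HISAT to GRCm38.p6, counted them with featureCounts 1.5.2, scaled them by TMM in edgeR and deposited log2 values for 12239 genes. Each deposited log2 value was the log2 of a whole read number plus 0.5 over the effective library size, times 1e6. Reads were recovered from it (100% whole, within 1e-06 reads). A second deposited table of the authors' comparison (fold changes, p-values) was not used.

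The main test was limma 3.58.1 with a mean-variance trend on the deposited values (R 4.3.3, two-sided, Benjamini-Hochberg over all genes, adjusted p under 0.05 and fold change above 1.5). Intervals are 95% from the limma SE. No count test was the main test because the unit is log2. To correct for GC content, log2 values of each library were regressed on transcript GC content (natural spline, 5 degrees of freedom), and that curve was exchanged for the average curve over libraries. GC content was matched for 12171 genes (99.4%), 353 by an older symbol. The script was tested on simulated data. A floor of 3 reads was 0.195 to 1.12 CPM. Chi-square per degree of freedom between libraries was at least 9.12, so none was a copy of another. The members and lists were chosen with earlier results of these data known. Genes named were all calpain family genes measured, the most abundant, most raised and most lowered gene of each linked list, and the 5 genes most like Capn3 and Capn15. Alternatives were GC correction, voom on recovered reads, library weights, other scalings, a low-value filter, log2(CPM + 1), no fold minimum, thinning, leaving out each library, and a replicate block with and without GC correction.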

Additional observations from a re-analysis of the deposited data

Results flagged for a closer look

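In 30 values examined over the 4 WT libraries, 5 had a single library whose gap to the nearest other exceeded Dixon's 95% critical value, where chance gives about 1 in 20. WT replicate 4 was that library in 4 of them. Its 4683853 reads lay far below the 14929214 to 15464499 of the others. Its log2 value was lower for Capn5 (0.034 against 1.08 to 1.17). It was higher for Capn12 (3.24 against 1.504 to 1.67) and for Ezr, which encodes ezrin (3.24 against 1.75 to 1.83). The log2 value of Cast in WT replicate 2 was 6.49 against 6.34 to 6.37, a gap small beside the difference between the groups. The C2-/- group, with 3 libraries, was not examined in this way. C2-/- replicate 2 had 1030 genes at 0 reads, against 247 in C2-/- replicate 1 at a similar depth (2613277 and 2747651 reads). C2-/- replicate 3 had 404. The cause was not tested.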

How the results depend on the processing

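The count of calpain genes past the threshold (3 of 6) fell to 1 with GC correction and to 1 with the replicate block plus GC correction. The share of all genes past it fell from 45.2% to 20.6% and 23.9%. Under the other 9 settings the count was 3 or 4 and the share 42.5% to 54.8%. Leaving out each library in turn gave counts of 3 to 4 and shares of 33.5% to 50.1%. With GC correction the log2 change turned to 0.43 in Capn1, 0.89 in Capns1, 0.0314 in Capn3, 0.10 in Ryr1, 0.13 in Des and 0.0488 in Tln1. With block and GC correction it was 0.47, 1.08, 0.0306, 0.0868, 0.18 and 0.12 in these genes, -0.0218 in Cast and 0.0165 in Aldoa. Capn2 turned to -0.0718 with library quality weights and ran from -0.0402 (without C2-/- replicate 2) to 0.299 when each library was left out. The cause was not tested.

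The fitted log2 change of Capn15, whose sign its choice fixed, was -3.56 with quantile normalization, -2.71 with log2(CPM + 1), -3.01 with block and GC correction and -5.49 to -4.34 without each library. Capns1 passed the threshold at -0.67 with quantile normalization, at -0.47 with no fold minimum and at -0.59 without C2-/- replicate 3. Same-numbered WT and C2-/- libraries did not deviate together (r = 0.05, -0.06 and -0.05), so the numbers were not taken to pair the samples. WT replicate 4 has no C2-/- partner, so the block also takes it out of each estimate. With the replicate block, 3 of 6 calpain genes and 48.2% of all genes passed. Capn6 no longer did (1.54, limma adjusted p 0.0616) and Capn12 did (1.497, adjusted p 0.0396), as it did when WT replicate 4 was left out. Of the linked genes, Ttn (0.79, limma adjusted p 0.0466) and Jph1 (0.64, adjusted p 0.00775) passed with the block but not in the main fit. Depth limits Capn5, Capn6, Capn10, Capn12 and Capn15, which had 37 reads or fewer in each C2-/- library.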
